A study of Mus musculus with 6 samples.

Results

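The genes described here encode splicing factors and heterogeneous nuclear ribonucleoproteins (hnRNPs), in PGCLCs (primordial germ cell-like cells) of the mouse, cultured cells that resemble the embryonic founders of eggs and sperm. The rule for membership uses gene symbols and was set with earlier results of these data known. It takes protein-coding genes of chromosomes 1 to 19 in GENCODE M21 whose symbol starts with Snrp, Sf3, U2af, Prpf, Srsf or Hnrnp, without the imprinted gene Snrpn. This gave 66 genes of 20722 protein-coding genes on these chromosomes. There were 19 Hnrnp, 13 Prpf, 11 Snrp, 11 Srsf, 9 Sf3 and 3 U2af genes, with 203 annotated transcription start sites (TSS) between them.

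Chromatin immunoprecipitation and sequencing (ChIP-seq) was done on untreated cells of strain 129Sv/J at day 2. The groups were 2 samples with an antibody to the HA tag fused to the C terminus of Tex10, 2 samples with an antibody to H3K4me3 (trimethylated lysine 4 of histone H3, a mark of active and poised promoters) and 2 samples of input DNA. The labels name no sample from cells without the tag, and the input samples entered no count here. Each antibody has a single deposited list of intervals (4331 for HA-Tex10, 29072 for H3K4me3) without heights or p-values, so no value below has a replicate error, the depth is unknown and no test between samples was possible.

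The label of the cells was compared with marker genes. An H3K4me3 interval lay within 1 kb of a TSS at 6 of 8 primordial germ cell genes, with Dppa3 and Nanos3 lacking one, and at 5 of 5 pluripotency genes. It was also present at 2 of 4 fibroblast genes, 2 of 3 neural genes and 1 of 4 muscle, liver and blood genes. Over all 20722 protein-coding genes the share was 62.6%, so counts of so few markers say little about the identity of the cells. H3K4me3 also marks poised genes, so these counts do not measure expression. Whether other cell types had a part in the intervals was not tested.

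Introns are removed from messenger RNA precursors by the spliceosome, which is built from small nuclear RNAs and their proteins. The Snrp genes encode the Sm ring and other proteins of the small nuclear ribonucleoproteins (snRNPs), the Sf3 and U2af genes encode factors that select the branch point and the 3′ splice site, and the Prpf genes encode proteins of the U4/U6.U5 particle, of the catalytic core and of the U1 snRNP. SR proteins (Srsf genes) and hnRNPs bind exons and introns and favour or oppose the use of nearby splice sites. Many SR protein and hnRNP genes also control their own messages through alternative exons. Tex10 is a nuclear protein known from ribosome biogenesis and from pluripotent cells, where it has been placed at enhancers.

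HA-Tex10 was found at 24 of the 66 genes (36.4%, 95% Wilson interval 25.8 to 48.4%), counting an interval within 1 kb of any coding TSS, and at 9.13% of all 20722 protein-coding genes. H3K4me3 was found at 65 of the 66 (98.5%, 91.9 to 99.7%), and at 62.6% of all genes. Among genes with H3K4me3 the share with HA-Tex10 was 24 of 65 (36.9%) for the splicing genes and 14.3% for all 12966 such genes. The Wilson intervals cover the counting of genes only. The 24 genes were met by 27 intervals, since Hnrnpl, Sf3a2 and Srsf2 had 2 each. A pair or more of intervals occurred at 1.36% of all genes with H3K4me3.

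The sequences under some of these intervals are given first, from the GRCm38.p6 reference and along the strand of the gene, as examples chosen after the values were seen: the first for their motif matches, the next for a divergent neighbour and the last for their place in an intron. They do not represent all 27 intervals, some of which hold no match. Bases of annotated transcript exons were left out, so most stretches are a part of their interval. Capitals mark matches to the motifs searched on both strands. The first 4 hold matches to the motifs of NRF1 (given by name, a motif with GCGC at both ends), ETS (CCGGAAG) or SP (GGGCGG).

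Hnrnpl (chr7:28811178-28811383, plus strand): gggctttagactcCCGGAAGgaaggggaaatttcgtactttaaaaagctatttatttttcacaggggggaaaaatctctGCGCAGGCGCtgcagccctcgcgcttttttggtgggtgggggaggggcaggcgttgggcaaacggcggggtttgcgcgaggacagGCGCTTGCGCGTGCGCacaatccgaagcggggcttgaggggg
Prpf3 (chr3:95855886-95856049, minus strand): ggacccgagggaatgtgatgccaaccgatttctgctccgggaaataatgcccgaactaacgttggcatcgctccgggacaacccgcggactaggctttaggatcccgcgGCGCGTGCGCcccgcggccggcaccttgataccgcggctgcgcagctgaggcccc
Sf3b6 (chr12:4817428-4817543, plus strand): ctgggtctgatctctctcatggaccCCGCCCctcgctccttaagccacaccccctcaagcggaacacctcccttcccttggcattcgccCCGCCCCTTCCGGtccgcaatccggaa
Srsf7 (chr17:80206945-80207174, minus strand): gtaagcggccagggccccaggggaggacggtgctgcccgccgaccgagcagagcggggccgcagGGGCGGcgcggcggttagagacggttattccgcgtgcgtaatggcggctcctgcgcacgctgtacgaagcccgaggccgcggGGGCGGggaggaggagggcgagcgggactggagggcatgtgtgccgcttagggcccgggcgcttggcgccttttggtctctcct

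The Hnrnpl stretch is a whole interval of 206 bp in an intron, with 3 NRF1 matches, a pair of which overlap, and 1 ETS match. The Prpf3 stretch ends at the TSS and holds 1 NRF1 match. In the Sf3b6 stretch, which ends at the TSS, an ETS match adjoins the second of 2 SP matches, and the Srsf7 stretch is the first part of the first intron, with 2 SP matches.

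The next stretches lie between the TSS of an hnRNP gene and that of a gene for heterochromatin protein 1 read in the other direction, Cbx5 beside Hnrnpa1 and Cbx3 beside Hnrnpa2b1. That of Hnrnpa1 is the whole interval, with 1 NFY (CCAAT) and 1 SP match. That of Hnrnpa2b1 has 0 matches to the 11 motifs and 22 CpG dinucleotides in 206 bases.

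Hnrnpa1 (chr15:103240054-103240268, plus strand): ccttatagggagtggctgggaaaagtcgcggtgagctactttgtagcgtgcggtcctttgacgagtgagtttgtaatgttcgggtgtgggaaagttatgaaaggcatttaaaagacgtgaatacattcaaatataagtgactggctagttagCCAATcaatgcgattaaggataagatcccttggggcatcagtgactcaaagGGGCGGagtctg
Hnrnpa2b1 (chr6:51469948-51470153, minus strand): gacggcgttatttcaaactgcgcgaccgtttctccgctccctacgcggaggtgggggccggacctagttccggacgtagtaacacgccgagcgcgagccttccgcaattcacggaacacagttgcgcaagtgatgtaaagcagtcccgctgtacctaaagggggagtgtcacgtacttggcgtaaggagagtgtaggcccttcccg

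The last stretches come from the first intron after a TSS of Snrpd3, Hnrnpf and Hnrnpc, where HA-Tex10 lay downstream of the TSS. All 3 begin with the gt of the intron's 5′ splice site. Their GC content was 55.9%, 54.9% and 68.0%.

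Snrpd3 (chr10:75518126-75518413, plus strand): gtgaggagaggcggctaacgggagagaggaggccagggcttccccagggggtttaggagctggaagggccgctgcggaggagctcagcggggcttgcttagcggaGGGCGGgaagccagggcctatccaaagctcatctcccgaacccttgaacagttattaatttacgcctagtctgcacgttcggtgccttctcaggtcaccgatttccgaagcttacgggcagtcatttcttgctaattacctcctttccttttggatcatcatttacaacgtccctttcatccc
Hnrnpf (chr6:117917599-117917875, plus strand): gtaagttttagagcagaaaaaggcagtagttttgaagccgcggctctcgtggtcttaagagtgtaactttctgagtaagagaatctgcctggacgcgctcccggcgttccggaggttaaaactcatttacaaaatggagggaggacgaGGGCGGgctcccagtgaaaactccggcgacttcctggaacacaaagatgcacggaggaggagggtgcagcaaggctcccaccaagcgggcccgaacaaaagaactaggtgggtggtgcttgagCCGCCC
Hnrnpc (chr14:52103683-52103888, minus strand): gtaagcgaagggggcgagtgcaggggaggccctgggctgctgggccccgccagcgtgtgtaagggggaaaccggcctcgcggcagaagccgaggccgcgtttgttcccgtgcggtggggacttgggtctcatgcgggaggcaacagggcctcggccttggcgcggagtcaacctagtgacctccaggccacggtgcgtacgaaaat

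**Figure D1:**
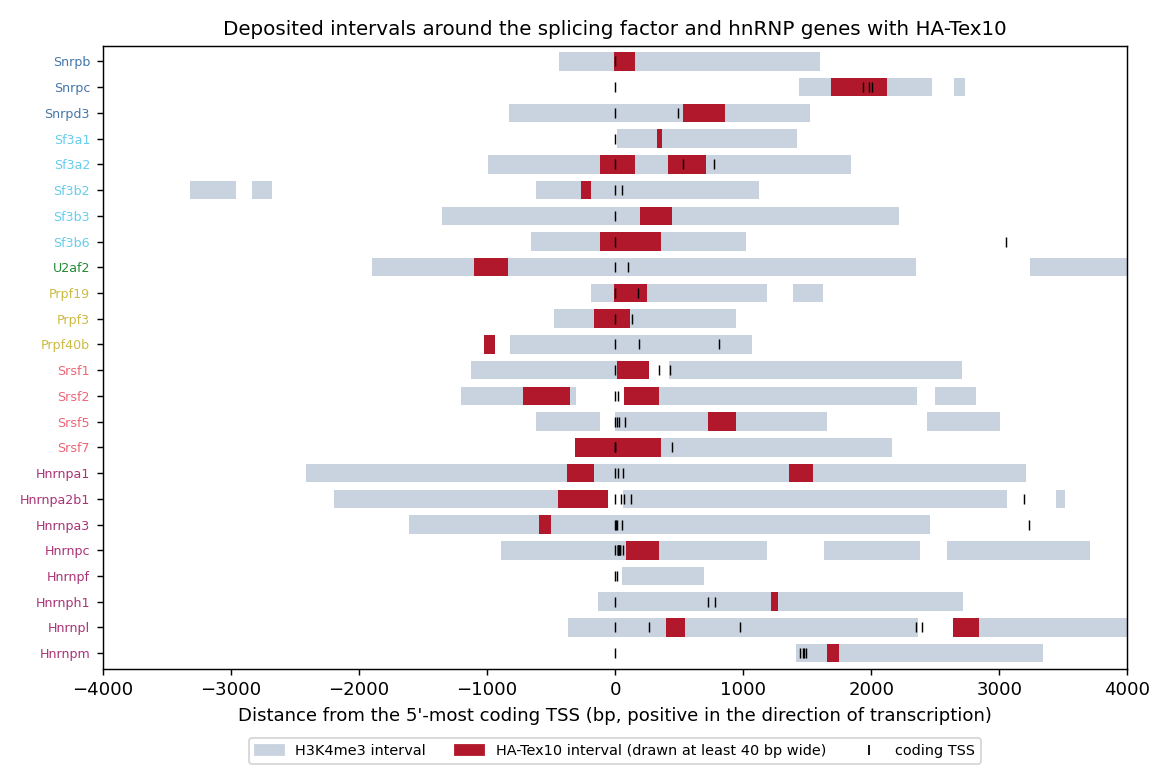
Deposited H3K4me3 (pale) and HA-Tex10 (red) intervals around each of the 24 genes with HA-Tex10 at a TSS, with distance in bp from the 5′-most coding TSS on the x axis and black ticks for all coding TSS within range. The red intervals lie mostly within the pale ones; the HA-Tex10 interval of Hnrnpf lies at a later TSS outside the range shown.

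Core snRNP proteins came first in the order of roles. HA-Tex10 was at 3 of 11 Snrp genes (27.3%, with 9.13% of all genes as background). Snrpb, which encodes a Sm ring protein shared by the spliceosomal snRNPs, had an interval of 166 bp over its TSS (chr2:130179244-130179409). Snrpd3, another Sm ring gene, had one of 332 bp that began 39 bp downstream of a TSS (chr10:75518082-75518413) and lay 110 bp from the nearest TSS of the divergent gene Gucd1. At Snrpc, whose product helps the U1 snRNP hold the 5′ splice site, an interval of 442 bp contained a TSS (chr17:27839833-27840274). This was one of the later TSS of the gene, and the 5′-most one had no interval of either list within 1 kb. Of the 7 Sm ring genes, 2 had HA-Tex10, and Snrpd1, Snrpd2, Snrpe, Snrpf and Snrpg did not.

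HA-Tex10 was at 5 of 9 Sf3 genes (55.6%, Wilson interval 26.7 to 81.1%), whose products form the SF3a and SF3b complexes that hold the U2 snRNP on the branch point. The U2 snRNP genes of the Snrp family, Snrpa1 and Snrpb2, had none. Sf3a2 carried an interval of 280 bp over its 5′-most TSS (chr10:80798077-80798356) and one of 301 bp over a second TSS (chr10:80798608-80798908), which also contained a TSS of the neighbour Plekhj1. Sf3b6, whose product contacts the branch point, had an interval of 476 bp over its TSS (chr12:4817428-4817903). The intervals at Sf3b2 (79 bp) and Sf3a1 (9 bp) were narrow and did not contain a TSS. The one at Sf3b3 (244 bp) lay 198 bp inside the gene but only 22 bp from the TSS of the divergent gene Cog4.

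Sf3b3 is the only one of the 66 on chromosome 8, and 41.2% of the marked genes of that chromosome had HA-Tex10. Without that chromosome the counts were 23 of 65 splicing genes (35.4%) and 8.03% of all genes. HA-Tex10 was not found at Sf3b1, the large SF3b subunit, at Sf3b4 or at Sf3a3.

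Sf3b5, a small SF3b subunit, was the 1 gene of the 66 without H3K4me3 at a coding TSS. GENCODE M21 starts it at position 13005343 of chromosome 10, in a stretch with 32.7% GC and 3 CpG, 1459 bp from the nearest H3K4me3 interval. RefSeq starts the gene 3107 bp further on, at 13008450. An HA-Tex10 interval of 232 bp (chr10:13008299-13008530) and an H3K4me3 interval of 1852 bp (chr10:13008058-13009909) both contain that start. With RefSeq mRNA starts for all genes, the counts rose to 27 of 66 for HA-Tex10 (40.9%, with 9.22% of all genes as background) and 66 of 66 for H3K4me3 (63.2% of all genes). The genes added for HA-Tex10 were Sf3b5, Hnrnpul1 and Hnrnpul2, and 0 of the 24 were lost.

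U2AF marks the 3′ splice site. Of its 3 genes, U2af2, for the subunit that binds the pyrimidine tract, had an interval of 269 bp that ended 834 bp upstream of a TSS (chr7:5061041-5061309), inside a 4248 bp H3K4me3 interval. U2af1, for the subunit that reads the AG of the site, and its relative U2af1l4 had none.

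Prpf genes had HA-Tex10 at 3 of 13 (23.1%). Prpf3, of the U4/U6.U5 particle, had an interval of 285 bp over its TSS (chr3:95855765-95856049), with the NRF1 match printed above. Prpf19, the ubiquitin ligase that names the Prp19 complex, had one of 260 bp over a TSS (chr19:10895221-10895480). At Prpf40b, for a U1-associated protein, an interval of 89 bp lay 934 bp upstream of a TSS, near the 1 kb limit, and met no H3K4me3. Prpf8, at the core of the catalytic spliceosome, Prpf6 and Prpf31 had no HA-Tex10 interval within 1 kb.

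SR protein genes had HA-Tex10 at 4 of 11 (36.4%). The widest of the 27 intervals, 676 bp, contained a TSS of Srsf7 and one of Ttc39d (chr17:80206945-80207620). Srsf2 had an interval of 271 bp starting 49 bp downstream of a TSS and centred in a coding exon (chr11:116852753-116853023), and another of 373 bp lying 348 bp upstream (chr11:116853442-116853814), only 6 bp from a TSS of the divergent gene Mfsd11. The interval at Srsf1 (250 bp, chr11:88047388-88047637) began 15 bp from the TSS and was 51.6% covered by H3K4me3, since it reached into a gap between H3K4me3 intervals. At Srsf5 an interval of 219 bp lay in an intron, 645 bp from a TSS (chr12:80946230-80946448). Srsf3, Srsf4, Srsf6, Srsf9, Srsf10, Srsf11 and Srsf12 had none within 1 kb.

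The hnRNP genes had HA-Tex10 at 8 of 19 (42.1%). Of the A/B class, which binds exonic and intronic silencers, Hnrnpa1 had an interval of 215 bp that lay 164 bp upstream of a TSS (chr15:103240054-103240268) and 238 bp from a TSS of Cbx5. Hnrnpa2b1 had one of 396 bp (chr6:51469948-51470343), 54 bp from its own TSS and 17 bp from that of Cbx3. Hnrnpa3 had one of 92 bp, 503 bp upstream. Hnrnpa0 and Hnrnpab had none.

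Among hnRNPs that bind uridine, guanine or CA-rich tracts, Hnrnpc (264 bp), Hnrnpf (329 bp) and Hnrnph1 (57 bp) each had 1 interval in an intron. Those of Hnrnpf and Hnrnph1 lay at later TSS of the genes. Hnrnpl had an interval of 148 bp (chr7:28808938-28809085) and the one of 206 bp printed above (chr7:28811178-28811383), near different TSS of the gene and both in introns. Hnrnpm had one of 91 bp, also at a later TSS. Hnrnpd, Hnrnpdl, Hnrnph3, Hnrnpk, Hnrnpll, Hnrnpr, Hnrnpu, Hnrnpul1 and Hnrnpul2 had none within 1 kb.

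**Figure D2:**
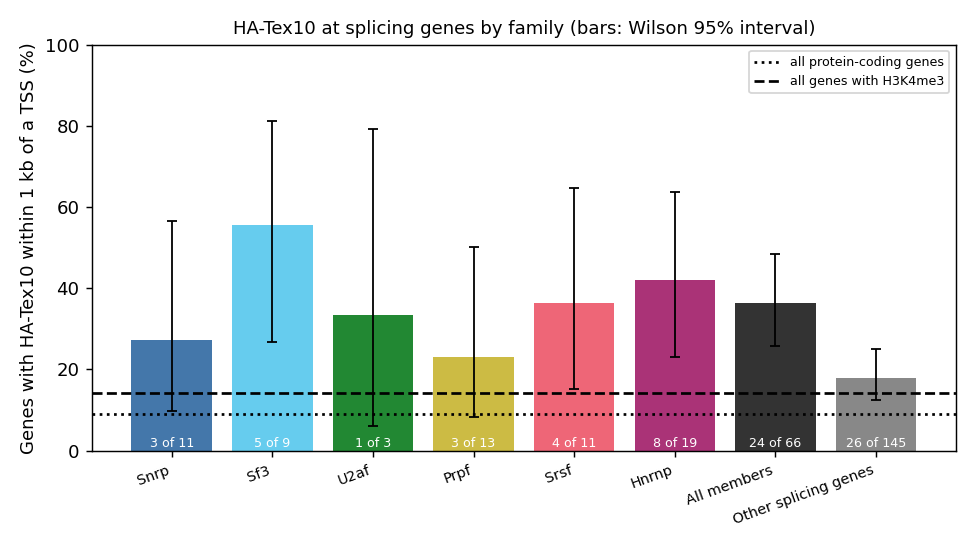
Share of genes (%) that HA-Tex10 met at a TSS, for each symbol family, for all 66 genes and for the other splicing genes, with Wilson 95% intervals as error bars. The Sf3 family is highest at 5 of 9, and the wide error bars of the families overlap each other. The error bar of the other splicing genes overlaps neither that of all 66 genes nor that of Sf3. Every bar is above the dotted line of all genes (9.13%). The error bars of Prpf and U2af include that line. Those of Prpf, Snrp, U2af and the other splicing genes include the dashed line of all genes with H3K4me3 (14.3%).

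The families could not be ordered from these counts, since their Wilson intervals overlapped, from 8.18 to 50.3% for Prpf and from 26.7 to 81.1% for Sf3. The gene count depended on the TSS and intervals used. With the 5′-most TSS alone it was 20 of 66 (30.3%, with 8.43% of all genes as background), and Hnrnpf, Hnrnph1, Hnrnpm and Snrpc were lost. When each interval counted only for the nearest TSS, 22 of 66 remained (33.3%, background 8.11%), without Hnrnpa2b1 and Sf3b3. With HA-Tex10 intervals wider than the median of the list, 14 of 66 were found (21.2%, background 4.86%), and the 10 lost were Hnrnpa1, Hnrnpa3, Hnrnph1, Hnrnpl, Hnrnpm, Prpf40b, Sf3a1, Sf3b2, Snrpb and Srsf5.

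The 27 intervals had a median width of 260 bp (range 9 to 676 bp), and the 1771 intervals at any coding TSS a median of 234 bp. Their centres lay downstream of the nearest TSS of the splicing gene in 17 of 27 cases (63.0%), and the median position was 76.5 bp downstream. For the 1771 intervals, measured from the nearest TSS of any coding gene, the values were 45.2% and 17 bp upstream (-17). The measures are unlike for 3 of the 27, at Hnrnpa2b1, Sf3b3 and Srsf2, where a TSS of another gene was nearer. They may also be unlike at Sf3a2 and Srsf7, where an interval contained a TSS of another gene as well. By annotation 10 centres lay in introns, 8 in exons of untranslated regions, 1 in a coding exon and 8 upstream of the gene. A TSS of the gene lay inside 8 of the intervals. The places by annotation and the intervals containing a TSS were not counted for the 1771, so these counts have no background.

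H3K4me3 met 26 of the 27 intervals (96.3%), and 90.3% of the intervals at any TSS. It covered 21 of them whole and 5 in part, the latter at Hnrnpa2b1, Hnrnpl, Srsf1, Srsf2 and Srsf7. How well reads can be placed was read from the reference: 0 of the 27 intervals lay mostly in 32-base words that occur more than once, as 7.34% of the intervals at any TSS did. An interval lay within 1 kb of the TSS of another coding gene in 10 of 27 cases, and in 3 of them, at Hnrnpa2b1, Sf3b3 and Srsf2, that gene's TSS was the nearer one. Whole coverage by H3K4me3 and the nearness of a further gene were not counted for the intervals at any TSS.

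**Figure D3:**
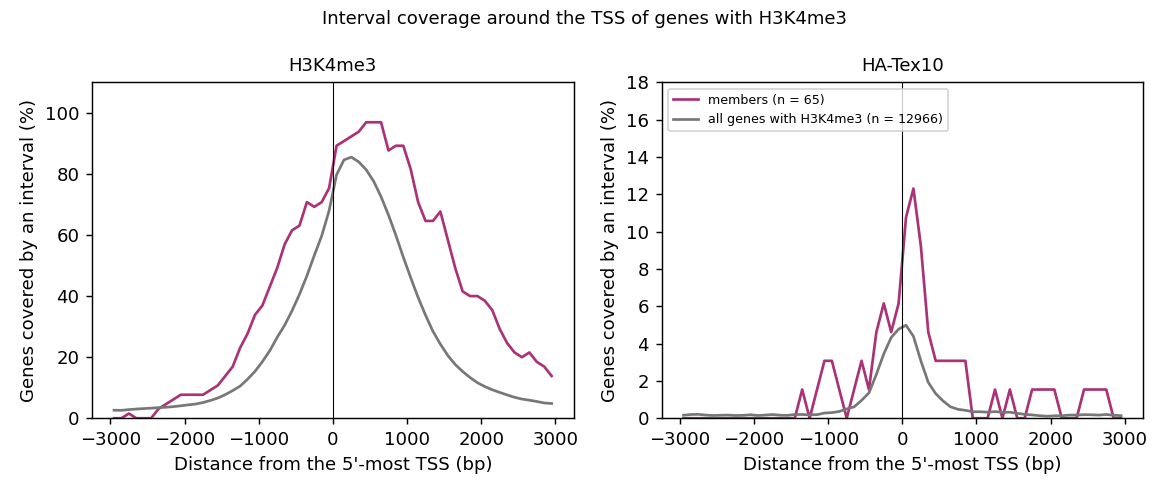
Percentage of genes covered by an H3K4me3 interval (left) and by an HA-Tex10 interval (right) at each distance in bp from the 5′-most TSS, for the 65 splicing genes with H3K4me3 and for all 12966 genes with it. The H3K4me3 curve of the splicing genes is wider, with 89.2% covered at 950 bp downstream against 52.8% of all marked genes, and their HA-Tex10 curve peaks at 150 bp.

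H3K4me3 was broad at these genes. The median width of the widest interval per gene was 2106 bp (interquartile range 1603 to 2759 bp, n = 65 genes), and 1360 bp (879 to 1981 bp) for all 12966 genes with H3K4me3. Intervals of 3000 bp or more were found at 13 of the 65 genes (20%), against 6.59% of all genes with the mark. More than 1 H3K4me3 interval lay within 1 kb of a TSS at 18 of the 65 (27.7%), against 20%. Around the 5′-most TSS the mark reached further on both sides. At 950 bp downstream it covered 89.2% of the splicing genes and 52.8% of all marked genes, and at 950 bp upstream 36.9% and 18.5%.

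The hnRNP genes were the broadest, with a family median of 2853 bp, and they made up 9 of the 13 genes with 3000 bp or more. The widest was at Hnrnpa1 (5625 bp, chr15:103238019-103243643), followed by Hnrnpf (5498 bp, at a later TSS) and Hnrnpdl (4695 bp). The narrowest was at Hnrnpk (1317 bp), where 3 intervals summed to 3148 bp. The family medians were 2154 bp for Srsf, 2120 bp for U2af, 1922 bp for Sf3, 1887 bp for Prpf and 1621 bp for Snrp, all above the 1360 bp of all marked genes. The widest intervals of the Srsf, U2af, Sf3 and Snrp families were at Srsf3 (4044 bp), U2af2 (4248 bp), Sf3b3 (3564 bp) and Snrpd2 (2495 bp). The narrowest were at Srsf12 (716 bp), U2af1l4 (1584 bp), Sf3a3 (1091 bp), Prpf39 (637 bp) and Snrpg (648 bp).

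**Figure D4:**
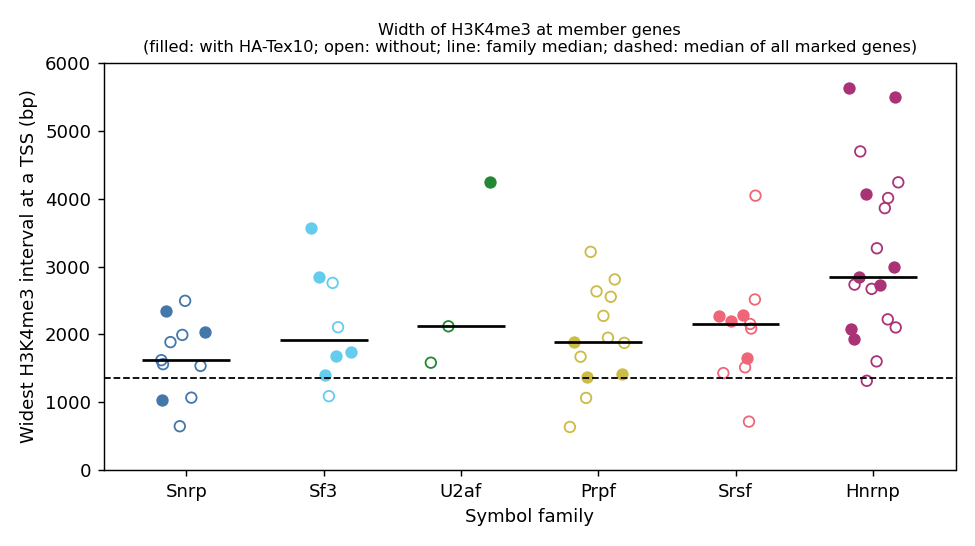
Width in bp of the widest H3K4me3 interval within 1 kb of a TSS for each of 65 genes, by symbol family, with filled points for genes with HA-Tex10 and black lines for family medians. The Hnrnp family has the highest median (2853 bp) and every family median is above the dashed line of all marked genes (1360 bp).

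Broad H3K4me3 goes with HA-Tex10 across the genome, so the share was set out by width. All genes with H3K4me3 were cut into 5 classes of about equal size by that width, and the share with HA-Tex10 rose from 5.36% in the narrowest (up to 765 bp) through 10.2%, 14.4% and 17.2% to 24.4% in the widest (2159 bp or more). The splicing genes with HA-Tex10 numbered 0 of 3, 1 of 4, 3 of 8, 7 of 20 (35.0%) and 13 of 30 (43.3%) in the same classes. The upper 2 classes thus held 50 of the 65 genes. In these 2 classes the share was above that of all marked genes, and the counts of the lower classes were too small to compare. Within the splicing genes, the median width was 2236 bp for the 24 with HA-Tex10 and 2103 bp for the 41 with H3K4me3 but no HA-Tex10. The widths ran from 1037 to 5625 bp with HA-Tex10 and from 637 to 4695 bp without, so the ranges overlapped over most of their length.

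**Figure D5:**
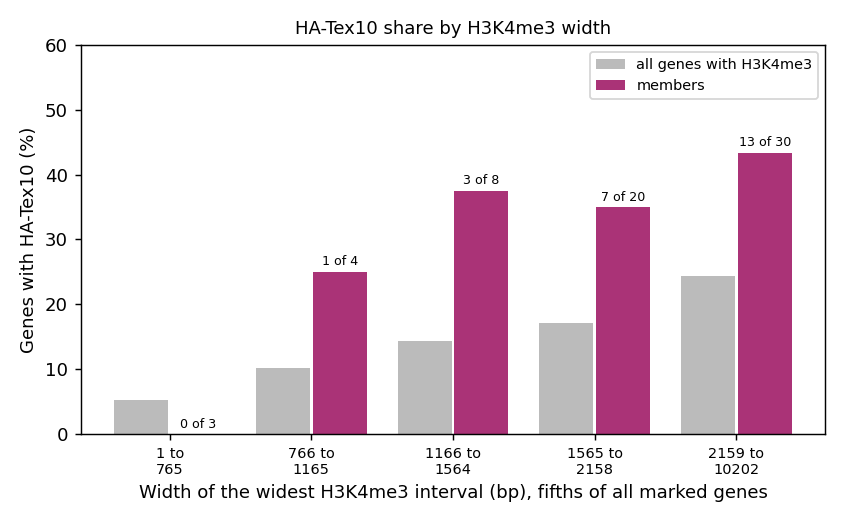
Percentage of genes with HA-Tex10 in each class of H3K4me3 width (bp, x axis), for all genes with H3K4me3 (grey) and for the splicing genes (purple, with counts). Grey bars rise from 5.36% to 24.4%, and purple bars stand above them in the upper 2 classes. The first 3 classes hold too few splicing genes to compare.

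Other features of the promoters were read from the reference. A coding gene started in the other direction within 1 kb upstream at 20 of the 66 genes (30.3%), against 8.97% of all genes and 13.8% of genes with H3K4me3. Divergent genes with H3K4me3 had HA-Tex10 in 25% of cases over the genome, and those without a divergent gene in 12.6%. Among the splicing genes the share was 7 of 20 (35.0%) with such a neighbour and 17 of 45 (37.8%) with H3K4me3 but without one. The median promoter (250 bases before to 50 after the 5′-most TSS) held 23.5 CpG dinucleotides, against 20 for all genes with H3K4me3 and 12 for all genes. Its GC content was 58.5%, against 60.7% and 55.7%.

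Motif matches in these promoters are descriptions of letters and not of binding, and no motif contains another. Each share is set beside that of all promoters of this length and then that of genes with H3K4me3, since 65 of the 66 carry the mark. The ETS motif was in 16 of 66 promoters (24.2%, against 11.2% and 16.6%), in 8 of the 24 genes with HA-Tex10 and 8 of the 42 without. NFY was in 30 (45.5%, against 38.6% and 38.4%). The TATAAA box was in 8 (12.1%), near the 12.7% of all promoters and above the 6.79% of marked genes. SP was in 40 (60.6%, against 44.5% and 63.3%), NRF1 in 6 (9.09%, against 6.29% and 9.59%) and the E-box (CACGTG) in 6 (9.09%, against 7.78% and 9.96%), so these 3 were above all promoters but not above marked genes. YY1 (AAGATGGCG) was in 2 (3.03%, against 1.72% and 2.65%) and CREB (TGACGTCA) in 1 (1.52%, against 2.45% and 3.32%). The OCT octamer (ATGCAAAT) and the motifs of BANP and ZNF143 were in 0, where all promoters had 1.61%, 0.613% and 0.386%. Genes with H3K4me3 had 1.33%, 0.933% and 0.571%, so 0 of 66 says little for motifs this rare. None of these differences was tested.

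The motifs were also counted in 200 bp windows centred on the intervals. NRF1 was in 6 of the 27 at splicing genes (22.2%) and in 8.70% of the 1771 at any coding TSS. ETS was in 6 (22.2% against 11.01%), SP in 10 (37.0% against 45.2%) and NFY in 1 (3.70% against 22.02%). These counts rest on few intervals, and some of the intervals share a gene.

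Near the splicing genes, 15 further HA-Tex10 intervals lay in a gene body or within 10 kb of it but not within 1 kb of a TSS of that gene. Of these, 7 lay at a TSS of another coding gene, such as Cox20 beside Hnrnpu, Esco1 beside Snrpd1, Jmjd6 and Mettl23 beside Srsf2, Gatc and Triap1 beside Srsf9, and Tbc1d10a beside Sf3a1. Outside the 1 kb limit, the interval of Hnrnpul2 lay 1015 bp upstream of the gene, at a TSS of Ttc9c, and that of Hnrnpul1 (41 bp wide) 1313 bp upstream. Inside genes there were 5: Hnrnpa1 had a second interval of 189 bp in an intron, starting 1360 bp downstream of its 5′-most TSS and within its broad H3K4me3 interval, and Hnrnpu one of 194 bp in an intron that also met H3K4me3. The third was that of Sf3b5 described above, and Hnrnpf had a stretch of 7 bp. The interval of 475 bp in an intron of Srsf4 met no H3K4me3, and 99.3% of its 32-base words occur elsewhere in the reference. The interval of 409 bp lying 4245 bp upstream of Prpf39 was also repeated sequence (100%), and that near Sf3a3 was 1 bp wide. No like count was made over all protein-coding genes, so the 15 intervals cannot be called many or few.

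The other genes of the splicing pathway, named apart from the symbol rule, were counted in the same way. An HA-Tex10 interval lay at 26 of 145 (17.9%, Wilson interval 12.5 to 24.98%, with 9.13% of all genes and 14.3% of marked genes as background), and H3K4me3 at 143, with Magohb and Rbfox1 lacking it. The 14.3% lies inside that Wilson interval, so the share is near that of marked genes. The median width of H3K4me3 was 1832 bp. By the 5 classes of H3K4me3 width, from narrow to wide, HA-Tex10 was at 0 of 9, 3 of 19, 3 of 31, 7 of 39 and 13 of 45 of these other genes. Their Wilson interval and that of the 66 genes (25.8 to 48.4%) did not overlap. That difference was not tested, and it takes no account of H3K4me3 width.

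By role the lists are small, and they stand beside 9.13% of all genes and 14.3% of genes with H3K4me3. The 14.3% lies inside the Wilson interval of each list but that of other hnRNP-type proteins and regulators (15.4 to 43.0%). None of these shares was tested. HA-Tex10 was at 5 of 17 genes (29.4%) of the exon junction complex and SR-related proteins: Acin1, Rbm8a, Srrm2, Thrap3 and Tra2b. Rbm8a encodes a core subunit of the junction complex, and its interval of 222 bp lay over a TSS. Tra2b, an SR-like activator of exons, had the broadest H3K4me3 of these 26 genes (5734 bp). Of the LSm ring, which binds U6 RNA or decaying messages, 2 of 8 had an interval (Lsm1 and Lsm4), both on chromosome 8. Of the minor spliceosome, which removes a rare class of introns, 2 of 8 had one (Pdcd7, in sequence of which 79.7% is repeated, and Zrsr1). The interval at Zrsr1 was only 39 bp wide and lay 666 bp from the TSS.

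Other hnRNP-type proteins and regulators had HA-Tex10 at 10 of 37 genes: Esrp2, Ewsr1, Khdrbs1, Pspc1, Raly, Rbfox2, Rbm25, Srek1, Tardbp and Tial1. Ewsr1 and Tardbp, for RNA-binding proteins of the nucleus, and Esrp2, an epithelial regulator that also lies on chromosome 8, had 2 intervals each. Of the remaining U1 and U2 snRNP genes 2 of 12 had an interval, Snrnp70, for the U1-70K protein (656 bp over a TSS), and Phf5a, of the SF3b complex (581 bp). Among the rest, 3 of 30 genes of the Prp19 complex and catalytic steps (10%, Mfap1a, Smu1, Snw1) had one. So did 1 of 14 for snRNP assembly (7.14%, Prmt5) and 1 of 7 SR protein kinases (14.3%, Clk4). These shares are not above the 14.3% of genes with H3K4me3. The remaining U4/U6.U5 genes had 0 of 12, where the Wilson interval reaches 24.2%. The interval at Mfap1a lay mostly in repeated sequence (83.8%).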

How the data were processed

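HA-Tex10 and H3K4me3 ChIP-seq intervals of day 2 PGCLCs were read as starts and ends in bp from the lists the authors deposited, which carry no score. Per the submitters' processing notes the build was mm10 and the tools were Bowtie2 2.3.4.3, SAMtools 1.9, MACS2 2.1.2 and HOMER; their settings, the use of input and how replicates were combined are not given in the sources used here. No interval (0) ran beyond the ends of the GRCm38 chromosomes; the reference strain is not that of the cells. The third list, 2990 distinct intervals, equals the HA-Tex10 intervals meeting H3K4me3 and served as an alternative only.

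TSS were starts of protein-coding transcripts in GENCODE M21 (52092 on chromosomes 1 to 19). An interval was at a TSS within 1 kb, and overlap needed 1 bp. Repeats were counted with 32-base words on the reference chromosomes, intervals under 100 bp being widened to 100 bp. Counts were made in Python 3.11.15 with pandas 2.3.3 and scipy 1.17.1, and the assignment was tested on simulated data.

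The members and lists were chosen with earlier results of these data known. Of 154 other splicing genes listed, 145 were on chromosomes 1 to 19. Named genes were all those with HA-Tex10, those without H3K4me3, the widest and narrowest H3K4me3 of each family (1 gene is not reported here), those with HA-Tex10 within 10 kb, and other splicing genes with HA-Tex10. Outside this rule, further members and neighbouring genes were named, and the printed sequences chosen from the intervals, after their values were seen.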

Additional observations from a re-analysis of the deposited data

How the results depend on the processing

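No paired analysis was possible because replicates are not separate in the deposited lists, and so none was left out in turn. Depth is unknown, and absence of an interval does not show absence of Tex10. Of 29 values under alternatives, 5 of them chosen after seeing the data, 23 stayed within the 95% interval of the reported value and 6 moved. Those 95% intervals cover the counting of genes or intervals and not differences between settings, so this tally does not measure stability. With HA-Tex10 intervals wider than the median, HA-Tex10 was found at 21.2% of the 66 genes (4.86% of all genes) and 11.03% of the other splicing genes. The share of the 66 with H3K4me3 was 100% with a 2.5 kb window (63.9% of all genes) and 100% with RefSeq starts. The median H3K4me3 width was 2634 bp with neighbours within 1 kb merged (1507 bp for all marked genes) and 2515 bp when intervals were summed (1467 bp). Under each of the 10 alternatives the share of the 66 genes with HA-Tex10, from 21.2% to 40.9%, was above that of all genes. All 10 draw on the same HA-Tex10 intervals, so they are not independent. Leaving out repeats or chromosome 8 could change little, since 0 of the 27 intervals were mostly repeated and only Sf3b3 lies there. The share of genes with H3K4me3 (14.3% in the main count) was not recomputed under them.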
